A study of Homo sapiens with 12 samples.

Results

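Footprints from the monosome pool of a sucrose gradient were compared between HEK293 cells deprived of amino acids and cells in log phase growth. The comparison takes 4 of the 12 libraries of the series, 2 per condition, chosen by their labelled condition and fraction and not by any measured value. HEK293 is an established line derived from human embryonic kidney. All cells were grown in DMEM with FBS, and the amino acid-starved cells then spent 1 h in EBSS, a salt solution with glucose, to which MEM vitamins, FBS and antibiotics had been added, so that serum was still present. The log phase cells are the untreated controls. The other libraries hold the polysome pools of both conditions and both pools of cells kept without serum for 2 h. Lysates of all groups contained cycloheximide, which holds elongating ribosomes in place. Libraries carry the letters A and B. No label says that the letters are separate cultures, so the p-values measure only the spread between these libraries, which may be technical.

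A monosome is an mRNA with a single ribosome on it, and a polysome carries several. Cells without amino acids accumulate uncharged tRNA and inactivate mTORC1, the kinase complex that keeps translation initiation running. The mRNAs of ribosomal proteins begin with a pyrimidine tract (the 5′TOP motif) and are known to leave polysomes when mTORC1 is off. Replication-dependent histone mRNAs are known for ending in a stem-loop in place of a poly(A) tail and for being made in bulk during DNA synthesis.

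The 4 libraries held 1204002 (log phase A), 778915 (log phase B), 750896 (amino acid-starved A) and 446546 (amino acid-starved B) footprints on open reading frames (ORFs). Of these, 289228, 346200, 172836 and 211537 lay on coding ORFs. Footprints of coding ORFs were summed per gene, and 4765 genes had enough for testing. A gene in the middle of the range had 20.5 footprints per log phase library and 12.5 per starved library, so most genes of this comparison were thinly covered. Of 8 markers chosen for HEK293, the intermediate filament genes VIM, NEFM and NEFL were well covered, KRT8 had 0 to 2 footprints per library, and INA, PAX2, LHX1 and KRT18 had no coding ORF in the table. None of the 7 markers of other tissues had one. Footprints follow mRNA level and ribosome loading alike, and scaling was done within each library. Every value below is therefore relative to the other genes of the monosome pool. Levels are given as CPM, footprints of a gene per 1000000 coding footprints of the library after edgeR's TMM scaling.

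Under amino acid starvation, footprints of histone mRNAs rose in the monosome pool, and those of several mRNAs that had been well covered in it fell. Of 4765 genes, 49 differed (1.03%), 30 higher (0.63%) and 19 lower (0.399%), by edgeR's quasi-likelihood test with a term for the letter and Benjamini-Hochberg adjusted p under 0.05. An unadjusted p under 0.05 was reached by 523 genes. Of the 30 higher, 20 were replication-dependent histones, and of the 19 lower, 4 were ribosomal protein genes. Changes of the called genes ran from 1.60 to 3.07 on the log2 scale upward and from -1.63 to -3.06 downward. All 49 moved the same way in the A pair and in the B pair, with no overlap between the groups. Of all tested genes, 62.1% likewise moved the same way in both pairs and 44.8% did not overlap. The calls rest on these same libraries, so this agreement is no separate support.

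The printed sequences come from the 2 gene groups with several members among the called genes, histones and ribosomal proteins. Whether promoter sequence has a part in the changes was not tested. For each histone class the called gene with the smallest p that has a promoter in the RefSeq table (GRCh38.p14) is shown from 45 bases before to 5 bases after the annotated start, 5′ to 3′ on the gene's strand. Capitals mark the letters TATAA, part of a TATA box.

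H1-1: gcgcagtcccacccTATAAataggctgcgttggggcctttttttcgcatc
H2AC18: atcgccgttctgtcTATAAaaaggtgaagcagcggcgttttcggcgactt
H2BC13: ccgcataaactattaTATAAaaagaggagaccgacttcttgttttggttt
H3C7: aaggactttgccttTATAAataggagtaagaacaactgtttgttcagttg
H4C5: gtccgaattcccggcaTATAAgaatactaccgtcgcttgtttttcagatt

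They lie at chr6:26017783-26017832 (H1-1, minus strand), chr1:149842746-149842795 (H2AC18, minus), chr6:27807925-27807974 (H2BC13, minus), chr6:26250631-26250680 (H3C7, minus) and chr6:26204565-26204614 (H4C5, plus). TATAA was searched on both strands in the 50 bases before the start. It was found in 37 of the 49 tested histone genes with a promoter in the table (75.5%), in 205 of 3765 tested genes (5.44%) and in 2077 of 27305 genes of the table (7.61%). Among the called genes that rose outside the histone list, 0 of 5 with a promoter held it. The 4 ribosomal protein genes that fell are shown from 15 bases before to 15 bases after the annotated start. Capitals mark the first run of at least 5 pyrimidines (C or T) that begins with C, and the annotated start is base 16 of each line.

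RPL41: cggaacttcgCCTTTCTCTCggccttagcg
RPS12: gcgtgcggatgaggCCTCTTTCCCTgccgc
RPS21: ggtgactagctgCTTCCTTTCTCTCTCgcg
RPS28: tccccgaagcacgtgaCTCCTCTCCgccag

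These windows are on the plus strand at chr12:56116618-56116647 (RPL41), chr6:132814554-132814583 (RPS12), chr20:62387088-62387117 (RPS21) and chr19:8321481-8321510 (RPS28). A start with C in the first 4 bases followed by at least 4 more pyrimidines was found in 8 of 17 genes that fell (47.1%), 4 of 24 that rose (16.7%), 678 of 3765 tested genes (18.01%) and 43 of 59 tested ribosomal protein genes (72.9%). Of the 13 fallen genes with a promoter that encode no ribosomal protein, 4 had such a start. A match is a description of the letters at the annotated start only.

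Replication-dependent histones, which package newly made DNA, were the main group that rose. Together they took 5.13% (A) and 4.24% (B) of coding footprints in log phase monosomes and 12.95% (A) and 12.48% (B) in starved monosomes. Both starved libraries lay far above both log phase libraries. The means were 4.69% ± 0.629 and 12.7% ± 0.33 (SD, n = 2), a ratio of 2.71, with 2.52 in the A pair and 2.94 in the B pair. The sum is not affected by how footprints were divided among the copies within the list. With 3 called rows on chromosomes 6 and 21 that carry no symbol of the list but lie at or share footprints with histone genes (described with the other genes that rose), it was 5.2 and 4.3% in log phase and 13.19 and 12.68% under starvation.

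**Figure D1:**
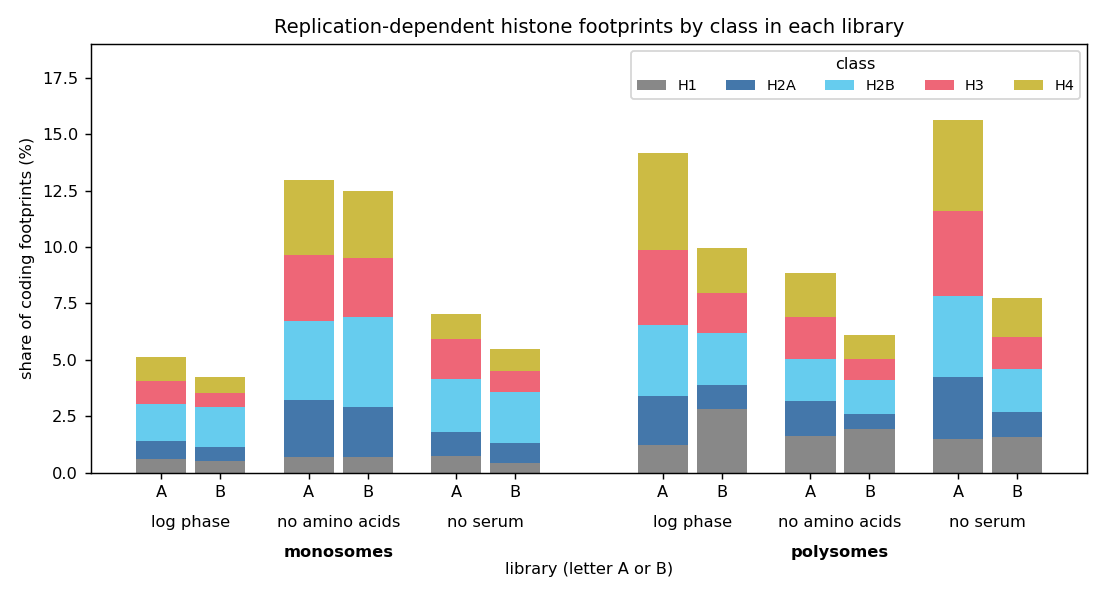
Share of coding footprints (%) on replication-dependent histone genes in each of the 12 libraries, stacked by histone class, with A and B of each group side by side. The 2 starved monosome libraries reach 12.95 and 12.48%, against 5.13 and 4.24% in log phase monosomes, while the 2 starved polysome libraries (8.87 and 6.09%) lie below the log phase polysome library of the same letter (14.2 and 9.95%).

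The ratio of summed shares was larger in the 4 core classes than in the linker class, whose sum was mostly H1-4. This difference was not tested, and the medians over single genes did not follow it. H4, which pairs with H3 at the centre of the nucleosome, held 1.09 and 0.699% of log phase monosome footprints and 3.31 and 2.98% of starved ones, a ratio of 3.51. H3 held 0.987 and 0.626% and then 2.93 and 2.61%, a ratio of 3.43. H2A went from 0.785 and 0.607% to 2.55 and 2.22%, also a ratio of 3.43. H2B, the partner of H2A, went from 1.65 and 1.78% to 3.48 and 3.99%, a ratio of 2.18. Linker histones H1, which bind the DNA between nucleosomes, stood at 0.620 and 0.537% in log phase and at 0.684 and 0.680% under starvation. This ratio of 1.18 reflects mainly H1-4, which had 1770 and 1837 footprints in log phase monosomes. H1-1 had 7 and 6 there, and H1-3 had 16 and 17. Over single genes, the median log2 change was 2.11 in H1 and 1.99 or less in each core class. In none of the 5 classes did the summed shares of the groups overlap, and 44.8% of single tested genes did not overlap either.

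Gene by gene, 51 histone genes were tested, all 51 had a positive log2 change (50 with RLE scaling), and 20 rose where 0.63% of all tested genes did. The median change of the list was 1.82 on the log2 scale, against -0.02 over all tested genes. The called genes were 2 of 3 H1, 7 of 13 H2A, 5 of 15 H2B, 2 of 8 H3 and 4 of 12 H4 genes. When the letter term was fitted separately in each fraction, 41 of the 51 rose, where 3.40% of all tested genes did. The counts of gene copies are uncertain, because copies are near-identical and the authors' counting divided shared footprints among them. H2AC18 and H2AC19 have identical values in all libraries, as do H3C14 and H3C15, so the 51 genes carry 49 distinct sets of values and the 20 called ones 19.

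H3C2, encoding histone H3, had 1341 (A) and 648 (B) CPM in log phase monosomes and 7891 and 7082 in starved ones. It showed the largest rise, 3.07 on the log2 scale (SE 0.573, adjusted p = 0.00528, edgeR quasi-likelihood test). H2AC18 had 491 and 252 CPM in log phase and 1922 and 2963 under starvation (log2 change 2.95, SE 0.535, adjusted p = 0.0044). Its called ORF spans only 12 nt, so this value rests on a very short stretch. H1-1, a linker histone, had 25.3 and 16.5 CPM, or 7 and 6 footprints, in log phase and 161 and 119 CPM, or 26 in each library, under starvation (2.77, SE 0.504, adjusted p = 0.0044). H1-4, of the same class, changed by 0.21, and the class sum includes both but is mostly H1-4. H3C7 went from 296 and 148 to 1804 and 881 CPM (2.59, SE 0.468). H4C5 went from 781 and 648 to 3745 and 3532 CPM (2.37, SE 0.516, adjusted p = 0.0162). Within the list the smallest values were those of H2BC9 (0.04) and H1-4 (0.21), and H2BC14 (0.43) was the only member whose B pair went down.

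A set of 6 histone-related genes outside the list gives a comparison, chosen after the histone values had been seen and therefore given without a test. Variant histone mRNAs are also made outside DNA replication and can carry poly(A) tails. The 6 are 5 variant histones and SLBP, the protein that binds the histone stem-loop. Their median log2 change was 0.59, within a range of -0.53 (H2AZ2) to 1.53 (H3-3A), and none of the 6 passed in the fit across all genes. With a letter term per fraction 1 of the 6 was higher, H3-3A, where 3.4% of all tested genes were. In that fit 2 of the 6 had a change more positive in monosomes than in polysomes, where 7.01% of all tested genes did. H3-3A had 65.0 and 54.9 CPM in log phase and 222 and 138 under starvation. SLBP had 108 and 115, then 179 and 211 CPM (log2 change 0.79).

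Of the other 10 rows that rose, 7 are genes of unlike functions and 3 lie at or share footprints with histone genes. PMAIP1 encodes NOXA, a small protein that promotes apoptosis and is a known target of the stress factors p53 and ATF4. Its footprints stood at 206 and 113 CPM in log phase and at 785 and 729 under starvation (2.38, SE 0.433, adjusted p = 0.0044). NDUFAB1, the acyl carrier protein of mitochondria and a subunit of complex I, had 213 and 214 and then 729 and 927 CPM (1.97, SE 0.429, adjusted p = 0.0162). POLR2K, a small subunit shared by the nuclear RNA polymerases, rose by 1.93 (242 and 236, then 1236 and 734 CPM). SNRPD3, a core protein of spliceosomal snRNPs, rose by 1.79, and BTF3L4, related to a subunit of the nascent polypeptide-associated complex, by 1.60. ASAH1, lysosomal acid ceramidase, rose by 2.56 on few footprints, 3 and 5 in log phase against 11 and 17. RNF169, a ubiquitin-binding protein of DNA repair, had 9 and 12 footprints in log phase but 10 (A) and 116 (B) under starvation. Its log2 change of 3.00 therefore rests on starved library B. The remaining 3 rows carry no symbol of the histone list. By position in RefSeq, the ORFs of one on chromosome 6 lie in H2BC15 and H2AC16, and its log2 change was 1.87 in monosomes and -0.95 in polysomes. The ORF of another, on chromosome 21, lies in H2BC12L and also within HSF2BP, and the row LOC102724334 has the same values in all libraries (2.05 in monosomes, -0.62 in polysomes).

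**Figure D2:**
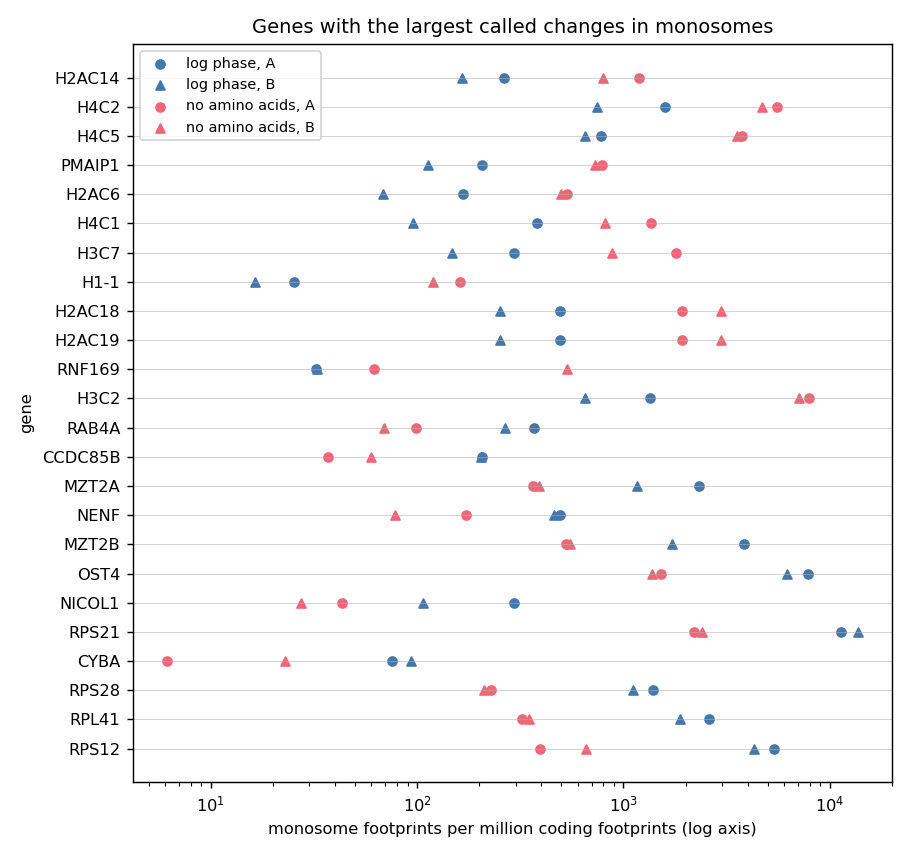
Monosome CPM (log axis) of the 12 genes with the largest called rise and the 12 with the largest called fall, with blue symbols for log phase, red for amino acid-starved cells, circles for library A and triangles for library B. Red and blue symbols do not overlap in any of the 24 rows, and the widest gap between A and B under starvation is that of RNF169.

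Genes that fell encode proteins of several kinds, and their called ORFs were mostly short, as were those of the genes that rose. RPS12, a small-subunit ribosomal protein, had 5341 and 4298 CPM in log phase monosomes and 395 and 656 under starvation, a log2 change of -3.06 (SE 0.585, adjusted p = 0.00662). RPL41, the shortest ribosomal protein, had 2609 and 1869, then 321 and 349 CPM (-2.67, SE 0.45, adjusted p = 0.0044). RPS28 had 1388 and 1117, then 229 and 211 CPM (-2.50, SE 0.483, adjusted p = 0.00713). RPS21 was the most heavily covered of these, with 3126 and 4981 footprints in log phase and 355 and 523 under starvation (-2.46, SE 0.586, adjusted p = 0.0315). In all 4 the higher starved library stayed at less than the lower log phase library.

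Among the other genes that fell, OST4, the smallest subunit of the oligosaccharyltransferase that glycosylates secreted proteins, had 7856 and 6211 CPM in log phase and 1514 and 1381 under starvation (-2.25, SE 0.533, adjusted p = 0.0315). MZT2B and MZT2A, paralogues of the γ-tubulin ring complex that may share reads, fell by 2.24 and 2.05 on the log2 scale. GPX4, the selenoprotein that reduces lipid peroxides, had 4907 and 2294, then 1094 and 816 CPM (-1.85, SE 0.449, adjusted p = 0.033). CYBA, the p22phox subunit of NADPH oxidases, fell by 2.46 on the log2 scale, from 21 and 34 footprints to 1 and 5. NICOL1 fell by 2.41, from 82 and 39 footprints to 7 and 6. NENF, a secreted neurotrophic protein, fell by 2.06. CCDC85B fell by 2.03 and RAB4A, a GTPase of endosome recycling, by 1.95. The remaining 6 were RPS19BP1 (-1.85), MTLN, a mitochondrial micropeptide (-1.86), HEBP2 (-1.86), CENPX of the centromere (-1.76), PPP1R14B (-1.67) and TMA7 (-1.63). Together the 19 genes held 4.57 and 3.89% of coding footprints in log phase monosomes and 0.812 and 0.848% in starved ones.

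Apart from those 4, none of the other cytosolic ribosomal proteins passed in monosomes by edgeR's quasi-likelihood test. In the large subunit 1 of 46 tested genes fell and 0 rose, with a median log2 change of -0.55. In the small subunit 3 of 27 fell and 0 rose, with a median of -0.63. With a letter term per fraction 6 large-subunit genes fell and 1 rose, and 5 small-subunit genes fell, where 3.34% of all tested genes fell. Large-subunit genes held 6.01 and 8.93% of coding footprints in log phase and 3.85 and 7.03% under starvation, so the groups overlap. Small-subunit genes held 5.12 and 5.93%, then 2.15 and 2.96%, with no overlap. RPL26L1, a paralogue of a large-subunit protein, did not pass (1.77, adjusted p = 0.0509).

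The polysome pool of the same cells, which shares no library with the monosome comparison, moved otherwise. There 245 genes were higher (5.14%) and 235 lower (4.93%) under amino acid starvation, or 376 and 105 with library-size scaling. Histones had a median of -1.23, with 15 of 51 lower and 0 higher, and their share went from 14.2 and 9.95% to 8.87 and 6.09% of coding footprints. The groups did not overlap, though starved A (8.87%) and log phase B (9.95%) lay close to each other. Ribosomal proteins had medians of -2.02 (large subunit, 33 of 46 lower) and -2.29 (small subunit, 22 of 27 lower). Across the 4765 genes the log2 changes of the 2 pools had a Spearman correlation of 0.20. This is a description across genes, which are not independent replicates, and both pools share the letters. Of the 30 genes that rose in monosomes, 24 had a negative value in polysomes, 5 of them past the threshold and none past it upward. Of the 19 that fell in monosomes, 18 had a negative value in polysomes, 7 past the threshold. Both sets were thus mostly negative in polysomes, with medians of -0.89 (rose) and -1.22 (fell). Both medians lay below the polysome median over all tested genes, -0.08. The share of all tested genes with a negative value there was not counted.

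The test of the difference between the pools named 55 genes, 51 with a change more positive in monosomes (1.07%) and 4 with a more negative one (0.0839%). Histones made up 33 of the 51, and none of the 4. With a letter term per fraction 47 of 51 histones lay on that side, where 7.01% of all tested genes did (3.34% on the other). H3C2 had the widest positive gap of the 55, 4.24 on the log2 scale (SE 0.777, adjusted p = 0.00396). In polysomes H3C2 had 12843 and 4525 CPM in log phase and 4117 and 2785 under starvation, the reverse of its order in monosomes. NDUFAB1 (2.42, adjusted p = 0.0275) and POLR2K (2.92, adjusted p = 0.0102) were on the same side. Of the genes that fell in monosomes, 0 of 19 differed between the pools, and 2, NICOL1 and CCDC85B, did with a letter term per fraction. RPS12 changed by -3.06 in monosomes and -3.08 in polysomes, a difference of 0.01 (SE 0.691).

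RPL10 and RPS26 were the only cytosolic ribosomal proteins among the 55, and both were named after their values were seen. RPL10 had 343 and 486 CPM in log phase monosomes and 260 and 656 under starvation, values that overlap, while in polysomes it went from 530 and 630 to 99.8 and 124 CPM. RPS26 changed by -0.16 in monosomes and -2.67 in polysomes (difference 2.52, adjusted p = 0.037). With a letter term per fraction 29 of 46 large-subunit and 15 of 27 small-subunit genes had a change more positive in monosomes. In that fit 7.01% of all tested genes did.

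The 4 genes on the other side were SQSTM1, HNRNPM, CTPS1 and PDIA3. SQSTM1 encodes p62, an autophagy receptor. It had 108 and 82.3 CPM, or 30 footprints each, in log phase monosomes and 18.5 and 27.5, or 3 and 6 footprints, under starvation, and it did not pass there (-2.16, adjusted p = 0.0827), while in polysomes it was higher under starvation (1.27, adjusted p = 0.0319). HNRNPM, an RNA-binding splicing regulator, changed by -0.39 in monosomes and 2.01 in polysomes. CTPS1, which makes CTP, changed by -0.75 and 1.42. PDIA3, a protein-folding enzyme of the endoplasmic reticulum, was named after its values were seen and had only 15 and 11 monosome footprints in log phase and 0 and 3 under starvation.

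**Figure D3:**
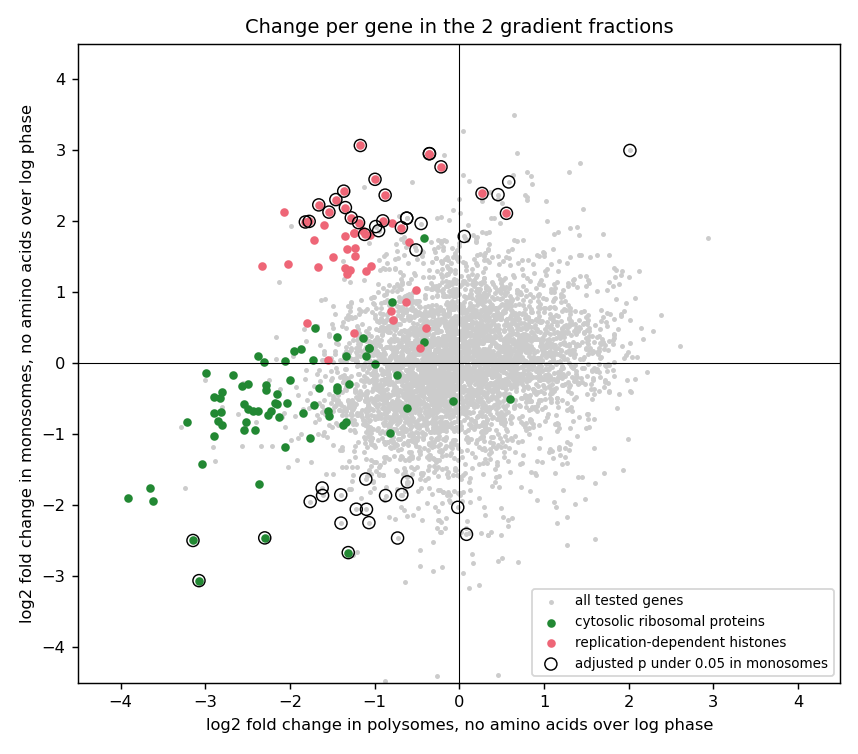
Log2 fold change per gene, amino acid-starved over log phase, in monosomes (vertical axis) against polysomes (horizontal axis), with histones in red, cytosolic ribosomal proteins in green and rings around genes that passed in monosomes; 53 genes beyond 4.5 on either axis are not drawn. Histones lie above 0 in monosomes and mostly below 0 in polysomes, while ribosomal proteins lie mostly below 0 on both axes and farther from it in polysomes.

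The called sets also differed in where their footprints lay on the gradient in serum-starved cells, which is given as a description. In serum-starved cells the log2 ratio of monosome over polysome footprints (1 CPM added to each sum of A and B) had a median of -0.21 over all tested genes, and 43.6% of genes were above 0. The 19 genes that fell had a median of 2.88, and 18 of 19 were above 0. The 30 that rose had a median of -1.19, and 3 of 30 were above 0. Genes that fell were thus relatively more covered in the monosome pool of serum-starved cells, and most genes that rose in the polysome pool. A fall can pass mainly where log phase monosomes are well covered, so the set that fell was selected toward such genes. The ratio is therefore no independent support for the calls. All groups share the letters and 1 estimate of spread, and the serum-starved libraries entered that estimate.

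**Figure D4:**
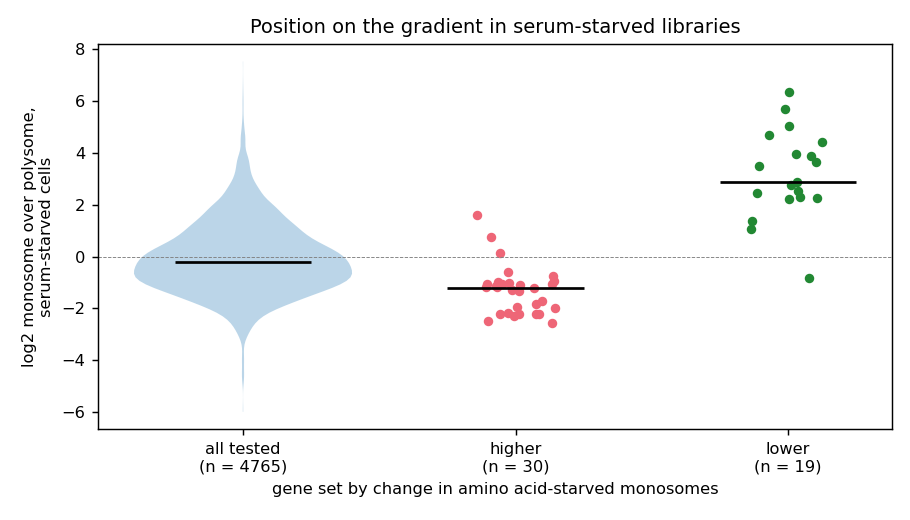
Log2 ratio of monosome over polysome footprints in serum-starved cells for all tested genes (outline), the 30 genes higher and the 19 genes lower in amino acid-starved monosomes (points, 1 per gene), with a bar at each median. The medians are -0.21, -1.19 and 2.88.

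Called ORFs of both sets were short. The median length was 297 nt for the genes that rose and 297 nt for those that fell, against 651 nt over all tested genes. Under 300 nt were 15 of the 30 that rose and 10 of the 19 that fell, as were 19.1% of all tested genes. This is the length of the main called ORF, often a truncated form, and mRNA length was not measured. Across all genes, length and the monosome change had a Spearman correlation of 0.06, against 0.35 in polysomes, again as a description. Genes under 300 nt had a median monosome change of -0.22, while the 4 longer length classes had medians between -0.03 and 0.04. Only 6 of the 30 and 5 of the 19 called genes had the annotated coding sequence as their main ORF. The rest had a truncated or variant form of it, often from a codon other than ATG, as did most tested genes (15.5% had the annotated form).

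No gene of the lists chosen for the amino acid response passed in monosomes with the shared letter term. PMAIP1, named above as an ATF4 target, is in none of these lists and did pass. Of 9 tested regulators of the integrated stress response, the pathway that senses uncharged tRNA, 0 passed in the edgeR quasi-likelihood test (median -0.39). With a letter term per fraction 1 of the 9 passed. This was ATF3, a transcription factor induced by stress, with 39.7 and 27.4 CPM in log phase and 117 and 115 under starvation. With the shared letter term its change was 1.80 and did not pass (adjusted p = 0.08, edgeR quasi-likelihood test). ATF4, the factor whose upstream ORFs let it be translated when initiation is limited, had 361 and 357, then 297 and 229 CPM (-0.50, SE 0.421, adjusted p = 0.726). Its overlapping upstream ORF had 66 and 32.1 unscaled footprints in log phase and 16.5 and 27 under starvation, on libraries of lower depth. Amino acid enzymes (18 tested, median 0.21), amino acid transporters (8, median -0.27) and aminoacyl-tRNA synthetases (17, median 0.20), which charge tRNAs, had no called gene with either form of the letter term. In polysomes 5 of 18, 1 of 8 and 7 of 17 genes of these 3 lists were higher, where 5.14% of all tested genes were.

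Respiratory chain and ATP synthase genes had a median of 0.24 with 1 of 66 called, NDUFAB1, and with a letter term per fraction 13 rose and 0 fell, where 3.40% of all tested genes rose and 3.34% fell. NDUFS5, a complex I subunit, had 296 and 266, then 1007 and 890 CPM (1.75, adjusted p = 0.0609), and COX7B of cytochrome oxidase 137 and 156, then 989 and 284 (1.72, adjusted p = 0.0961). In polysomes the list had a median of -0.73 with 8 lower and 4 higher, where 4.93 and 5.14% of all tested genes were. Mitochondrial ribosomal proteins had a median of 0.25 in monosomes with 0 of 69 called. The elongation factor and other 5′TOP list had a median of 0.04 with 0 of 19 called, among them EEF1A1 (-0.70), EEF2 (-0.05), PABPC1 (-0.15) and TPT1 (-1.01). Proteasome subunits, 36 tested, had a median of 0.30 with 0 called, and chaperones of the HSP70, HSP90 and J-protein families 0.18 with 0 of 27. MYC (0.45), HSPA8 (0.22) and ODC1 (-0.51) did not pass. Of the 30 gene lists examined, 6 held a called gene, namely histones, both ribosomal protein lists, the respiratory chain, the secretory entry list (OST4) and the selenoproteins (GPX4).

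**Figure D5:**
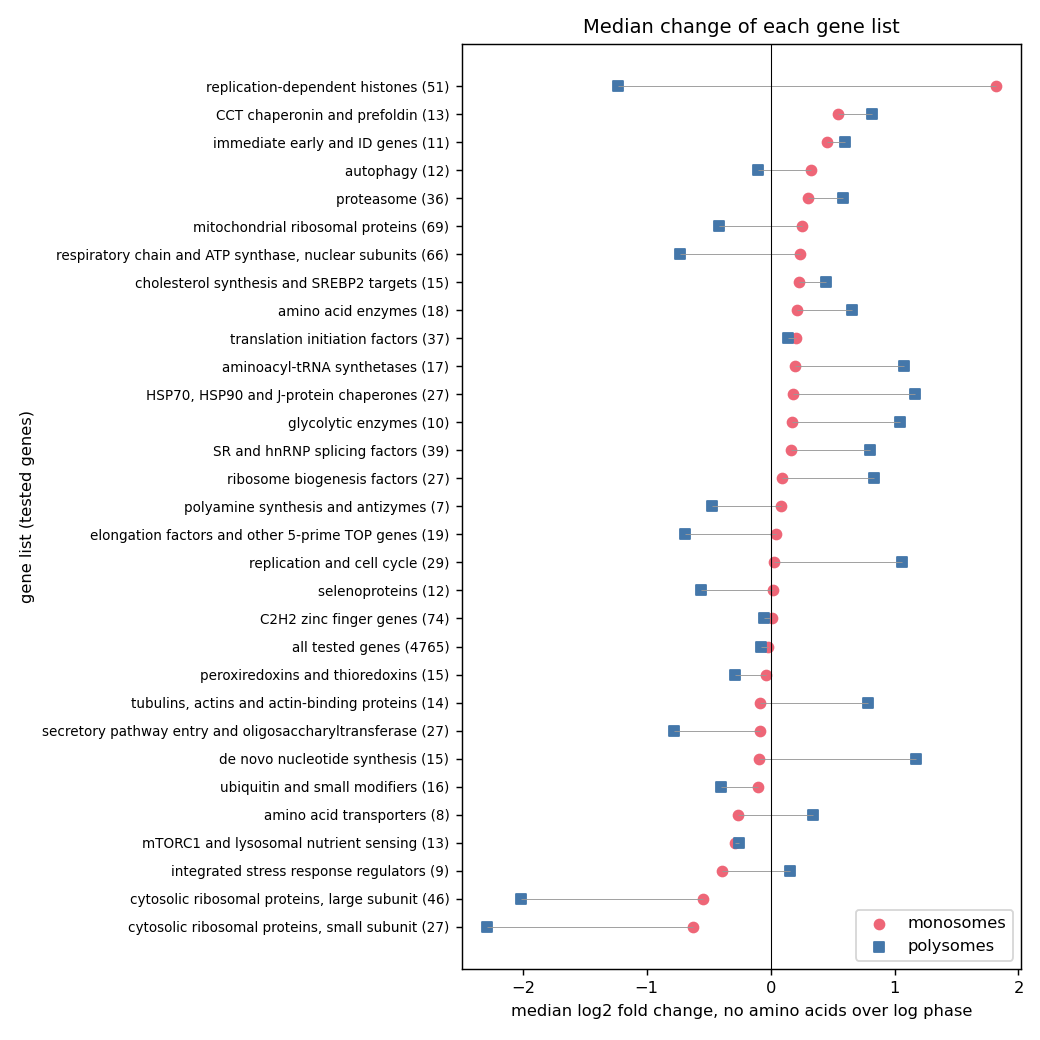
Median log2 fold change of each gene list, amino acid-starved over log phase, in monosomes (circles) and polysomes (squares), with the number of tested genes in brackets. The histone list is at 1.82 in monosomes and -1.23 in polysomes, and no other list has a monosome median above 0.54 or below -0.63.

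Serum-starved monosomes, compared with the same log phase libraries, gave 1 called gene of 4765 (273 with an unadjusted p under 0.05). Histones held 7.03 and 5.5% of coding footprints there, and their median change was 0.55, beside 1.82 under amino acid starvation. RPS12 changed by -1.02 and PMAIP1 by 1.16 without serum. Both comparisons share the log phase libraries.

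Outside coding ORFs the libraries differed by letter more than by condition. Coding ORFs held 24.02 and 44.45% of all footprints in log phase and 23.02 and 47.37% under starvation. A single internal ORF of 9 nt held 47.9 and 47.5% of the 2 A libraries but 0.721 and 0.935% of the B libraries. The exact permutation p was 0.667 to 1 per ORF type and 1 after adjustment over 9 types, but with 2 against 2 libraries this test cannot go below 0.33 and says nothing of whether types differed. Upstream ORFs held 2.14 and 5.66% in log phase and 1.45 and 4.77% under starvation. Overlapping upstream ORFs held 1.82 and 4.37% in log phase and 0.986 and 2.91% under starvation, so for both types each starved library was below the log phase library of its letter. ORFs of the mitochondrial chromosome held 4.56 and 7.07%, then 6.25 and 5.21% (exact permutation p = 1).

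The count of 49 depends on how the letter is modelled. Without any letter term 0 genes passed the edgeR quasi-likelihood test (240 with an unadjusted p under 0.05), with a term per fraction 321 did, which include all 49, and DESeq2 gave 176. Leaving out starved library B left 3 calls, log phase A 25, log phase B 15, serum-starved monosome B 30, starved polysome A 21 and B 27, while leaving out serum-starved polysome A or B gave 128 and 134. The count of histones that passed, 20, went to 0, 3 and 3 without starved B, log phase A or log phase B, to 13 without serum-starved monosome B, to 10 and 13 without starved polysome A or B, and to 33 and 37 without serum-starved polysome A or B. The median over the 51 log2 change stayed between 1.32 and 2.04 throughout. The 480 calls in polysomes went to 8 and 288 without log phase polysome A or B, to 1 and 7 without starved polysome A or B, and to 784 and 786 without serum-starved polysome A or B. The 55 genes that differed between the pools went to 7 and 124 without log phase monosome A or B, to 136 and 11 without starved monosome A or B, to 8 without log phase polysome A, and to 140 and 146 without serum-starved polysome A or B. Without starved polysome A or B, 0 genes differed by edgeR's quasi-likelihood test (429 and 356 with an unadjusted p under 0.05).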

How the data were processed

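Ribosome-protected fragments of the 12 libraries were compared through 1 table of 149028 ORFs. Its values are expected counts per library, deposited by the authors as output of the ORF caller named in the table's title, which divides footprints among ORFs. The p-value per ORF, deposited by the authors, was used only for a stricter set (p under 0.0001). Bowtie 1.0 and hg38 are listed in the submitters' processing notes, with no role given; other steps are not given in the sources used here. Library depth was 354506 to 1204002 footprints in monosomes and 2477823 to 7683728 in polysomes.

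Each codon was counted once, giving preference to coding types (CDS, truncated, variant) and then to larger totals. This left 124829 ORFs, and its 7031 coding ORFs belong to 6375 genes. Counts were summed per gene and rounded. The table gives gene identifiers only, and 6003 genes were named by position inside 1 protein-coding RefSeq gene. Promoter sequences are from RefSeq (GRCh38.p14). Genes passed edgeR's filterByExpr (minimum count 10, total 15), received TMM factors and entered a quasi-likelihood fit (edgeR 4.0.16, R 4.3.3) of all 6 groups with a term for the letter. Tests were two-sided, with Benjamini-Hochberg adjustment over 4765 genes and a threshold of 0.05. The standard error is the log2 change over the root of F. The letters pair the libraries by the data, but weakly in monosomes. Deviations of same-letter libraries from their group means correlated with r of 0.742 to 0.843 between polysome groups. Pairs that include a monosome group had r of 0.156 to 0.395, and log phase with amino acid-starved monosomes had 0.228. The labels' replicate numbers are not tied to the letters. On simulated data with 200 changed genes, 9, 41.8 and 84.8% of 2-, 4- and 8-fold changes of this comparison were called, and 5 of 95 calls were false. The counts were drawn from the fitted model itself, with its letter term and dispersions. The share of false calls therefore holds only if that model is right, which the simulation cannot show.

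Named genes are the 12 largest changes in each direction that passed, moved alike in both pairs and averaged 20 footprints in the libraries of the higher group, the 3 smallest p of each list, 10 chosen genes, and up to 4 per direction from the test between pools; others are named as the members of a short set, after their values were seen. The comparison, its gene lists and its rules were chosen with earlier results of these data known. Alternatives were DESeq2 1.42.0, other scalings (RLE, library size), filters, ORF sets, letter terms and sample sets, thinning to 119885 footprints, and leaving out each library.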

Additional observations from a re-analysis of the deposited data

Results flagged for a closer look

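The change under amino acid starvation differed between monosomes and polysomes, by the test of the difference itself (edgeR quasi-likelihood interaction), in 55 of 4765 genes. Among genes that averaged at least 20 footprints in the libraries of the higher monosome group, the 4 widest positive differences on the log2 scale were those of H3C2 (4.24, SE 0.777, adjusted p = 0.00396), H2AC14 (3.89, SE 0.632, adjusted p = 0.00199), H2AC13 (3.81, SE 0.659, adjusted p = 0.00253) and H4C1 (3.79, SE 0.604, adjusted p = 0.00199). H2AC14 rose by 2.23 in monosomes and fell by 1.66 in polysomes, H2AC13 by 1.99 and 1.82, and H4C1 by 2.43 and 1.37. The negative differences under the same rule were those of SQSTM1 (-3.43, SE 0.716, adjusted p = 0.0108), HNRNPM (-2.40, SE 0.614, adjusted p = 0.0447) and CTPS1 (-2.17, SE 0.536, adjusted p = 0.036). Another gene with a negative difference, PDIA3 (-4.08, adjusted p = 0.0253), was below that minimum. CTPS1 had 260 and 620 CPM in log phase monosomes and 192 and 303 under starvation, against 66.6 and 166, then 201 and 392 CPM in polysomes. No explanation for these differences was tested.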

How the results depend on the processing

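Each count of called genes depends on the letter term. Without the replicate block, 0 genes passed in monosomes, polysomes or the difference between them by edgeR's quasi-likelihood test (240 monosome genes and 201 for the difference had an unadjusted p under 0.05), and 0 histones. With the replicate block fitted within each fraction the counts were 321, 1414 and 493, and 41 histones; all 49, 480 and 55 main calls were among them. The 6 monosome libraries alone gave 303 genes and 41 histones. The compared libraries alone gave 232, 1409 and 126, and 41 histones. DESeq2 gave 176 in monosomes, 170 for the difference and 35 histones. No filter gave 85 and 94. CDS-type ORFs alone, with 800 genes to test, gave 13, 83 and 7, and 5 histones. ORFs with the stricter caller p gave 26 and 32, and 12 histones. Thinning left 156 polysome calls, and library-size scaling 36 for the difference. Leaving out 1 library gave 3 to 134 genes in monosomes, 1 to 786 in polysomes, 0 to 146 for the difference and 0 to 37 histones, where a group left with 1 library is assumed to vary like the others. All other settings stayed within 1.5 times of the main counts.

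Histones had a positive median under every setting, from 1.32 to 2.04 on the log2 scale, and the count of called histones by setting was added after seeing the data. Of the 66 genes named by rule, 37 were called. RLE scaling kept 36 of them and library-size scaling 35. None of these 37 changed sign under a setting that tested it. CDS-type ORFs alone held only 8 of them and the stricter caller set 19, and the other called genes were not part of this check. The scalings moved the median of all genes to 0.24 in polysomes and -0.34 for the difference (library size) and to -0.13 for the difference (RLE), while the monosome median stayed at -0.05 and -0.09. The share differences of all coding ORFs together and of the mitochondrial chromosome stayed within the spread between libraries, with signs that varied. Single ORF types were not checked under these settings. Except where a setting tests fewer genes or libraries, the cause of a changed count was not tested. In simulated data 9% of 2-fold changes were called, so changes of that size were mostly below what the test can show; thinning to the smallest library gave 63 monosome calls.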
